A study of Mus musculus with 11 samples.

Results

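The regions described here are stretches of the mouse genome in which trimethylation of lysine 4 of histone H3 (H3K4me3) differed between neonatal and adult cardiomyocytes, the contractile muscle cells of the heart. They are the rows for chromosomes 1 to 19 of the authors' deposited comparison of the 2 stages, which lists regions with a false discovery rate under 0.01, less the regions that held 0.5 or more reads per bp at either stage. The rule left 10040 regions, out of 19278 regions that appear in any of the 12 comparison tables of the series. Neonatal cells came from mice 1 day old and adult cells from the left ventricle of mice 2 months old. Heart region and age therefore differ together and cannot be told apart. The labels name no strain, genotype, transgene or treatment for either stage. Cells were isolated by enzymatic digestion, and the same antibody was used at both stages. Each stage has 1 H3K4me3 library, the neonatal one with an input library of its own, so no difference has a replicate check and no p-value is given.

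H3K4me3 is deposited by the SET1 and MLL family of methyltransferases and sits on nucleosomes around the start sites of active and poised genes. Most marked stretches are narrow, and at some genes the mark extends into the gene body. H3K27me3, the Polycomb mark, can share promoters with H3K4me3 in a state called bivalent. H3K79me2, deposited by DOT1L, covers the early part of genes that are being transcribed, and H3K9me3 marks heterochromatin.

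The authors' tables share 1 common set of regions that do not overlap, so the width of a region is not the width of an H3K4me3 peak. The marked stretches themselves are given by SICER islands, which the authors called in each library. Reads are whole numbers recovered from the deposited log2 values, with a lowest value of 1. That this value is a floor set after control reads were subtracted was inferred from the values and is not stated by the authors, and 446 regions at 1 neonatal read hold a neonatal island. A level of 1 read is therefore no measure of absence, and each fold given as "at least" holds for the table's reads under that reading. Fold differences also use the deposited library factors, 1.30 (neonatal) and 0.771 (adult). The regions held 346827 neonatal and 653017 adult reads. The excluded dense rows numbered 74, were all higher in the adult, and held 21.6% of the neonatal and 46.9% of the adult reads of the rows on chromosomes 1 to 19. The densest regions kept included chr1:177163200-177166199, with 340 neonatal and 1476 adult reads or 0.492 adult reads per bp, and the first left out was chr2:134440000-134442799, with 265 and 1528 reads or 0.546 adult reads per bp. Coordinates are in mm9. No gene annotation of that build was used here, so regions are given by position and carry no gene names, and markers of cardiomyocytes were not checked.

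More regions were higher than lower in the adult, but the order turned among regions that H3K4me3 islands covered over at least 50% of their length. Of all regions of the 12 tables on chromosomes 1 to 19, 53.9% were listed for H3K4me3 between the stages. Of the 10040 regions, 5532 (55.1%, 95% Wilson interval 54.1 to 56.1) were higher in the adult and 4508 (44.9%) were lower. Calls by MACS, the authors' second caller, did not follow this direction in the higher regions. There 30.6% held a neonatal and 19% an adult MACS region. In the lower regions these shares were 74.5% and 21.0%, and over all regions 50.3% and 19.9%. Regions higher in the adult had a median of 2 neonatal and 49 adult reads. Regions lower in the adult had a median of 48.5 neonatal and 38 adult reads. In the higher group the middle 50% of regions had between 1 and 18 neonatal reads, and in the lower group between 31 and 72 neonatal and between 19 and 63 adult reads. The median difference was 2.79 on the log2 scale in the higher group, or 1.83 with the floor counted as 3 reads, and -1.07 in the lower group. Differences of at least 4-fold were found for 3409 higher (34.0%) and 688 lower regions (6.85%), but 2703 of the higher and 226 of the lower regions had only 1 read, the floor, at the other stage. Above the floor at both stages, 7111 regions remained, of which 39.8% (38.7 to 40.9) were higher, and 706 (9.93%) and 462 (6.50%) differed at least 4-fold upward and downward. All intervals cover counting error only, and those of read ratios take the recovered reads as plain counts. If control reads were subtracted, the counting error of the control is left out. A level of a few reads may then be a small remainder of larger counts, and its interval is too narrow.

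**Figure D1:**
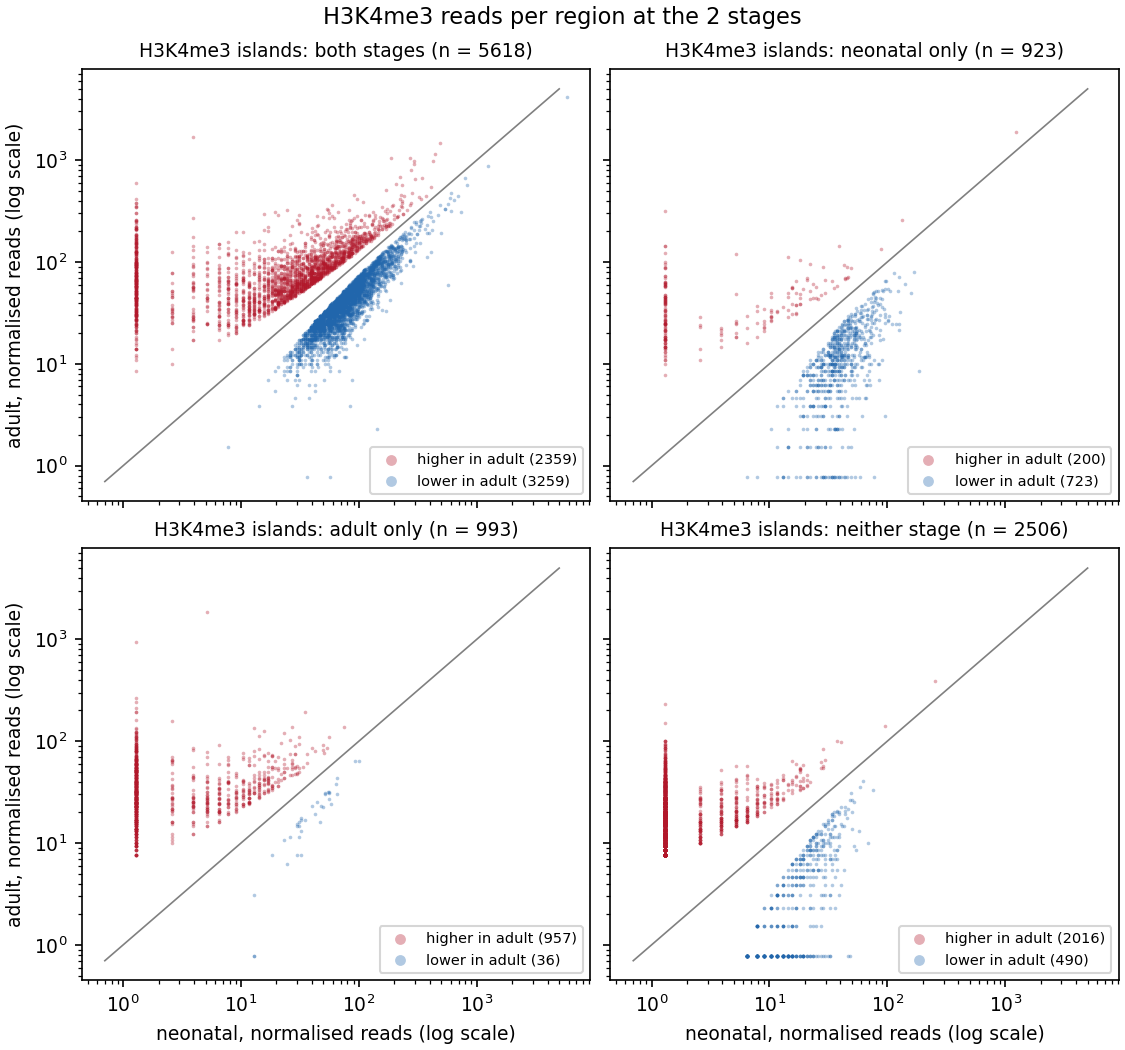
Each point is 1 of the 10040 regions, with neonatal normalised reads on the horizontal and adult normalised reads on the vertical axis, both on log scales, in a panel for each combination of H3K4me3 islands. The line marks equal values. Of the 2506 regions without an island (2016 higher, 490 lower), 1678 stand at the neonatal floor of 1 read, and regions with islands at both stages lie on either side of the line with values at both stages (2359 higher, 3259 lower).

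The direction of the difference followed the width of the region. Of the 2033 regions under 4 kb, 33.1% (31.0 to 35.1) were higher in the adult. The share was 44.8% from 4 to 8 kb, 59.8% from 8 to 16 kb and 76.0% from 16 to 32 kb. It reached 88.9% (86.4 to 91.1) of the 678 regions of 32 kb and more. With only regions above the floor the shares were 17.8%, 27.1%, 43.2%, 65.2% and 84.1% in the same order, and with only regions that had H3K4me3 islands at both stages they were 14.1%, 22.3%, 42.1%, 67.0% and 86.9%. The order of the width classes was the same without the library factors, when the shares ran from 38.2% to 97.1%, and after centring on the median difference of all the regions, when they ran from 32.1% to 74.3%. Without the factors the class from 4 to 8 kb was above 50%, at 54.97%. Listed regions of 32 kb and more had a median of 30 neonatal and 166 adult reads, those under 4 kb 24 and 22.

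The same regions sorted by the share of their length under H3K4me3 islands of either stage gave the opposite course. Without any island, 80.4% (78.8 to 82.0) of 2506 regions were higher in the adult. With islands over up to 25% of the region 76.8% were higher, with 25 to 50% covered 46.5%, and with 50 to 75% covered 28.8%. Among the 1727 regions that were covered over 75 to 100% of their length, 21.9% (20.1 to 24.0) were higher and 1348 were lower. The shares above the floor were 52.4%, 67.8%, 40.7%, 24.4% and 18.5%, so there the class without an island was no longer the highest. Between up to 25% and 75 to 100% the share also declined within the regions under 4 kb, from 57.1% of only 14 regions to 20.7% of 1046, and within those of 16 to 32 kb, from 80.1% to 45.2%. Of the regions of 32 kb and more, 94.3% of those covered up to 25% and 40.7% of the 27 covered over 50 to 75% were higher, but only 3 were covered further, of which 2 were higher. Without the library factors the share in regions covered over 75 to 100% was 34.1%, still the lowest of the 5 classes, but that in regions covered over 25 to 50% was above 50%, at 62.1%.

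**Figure D2:**
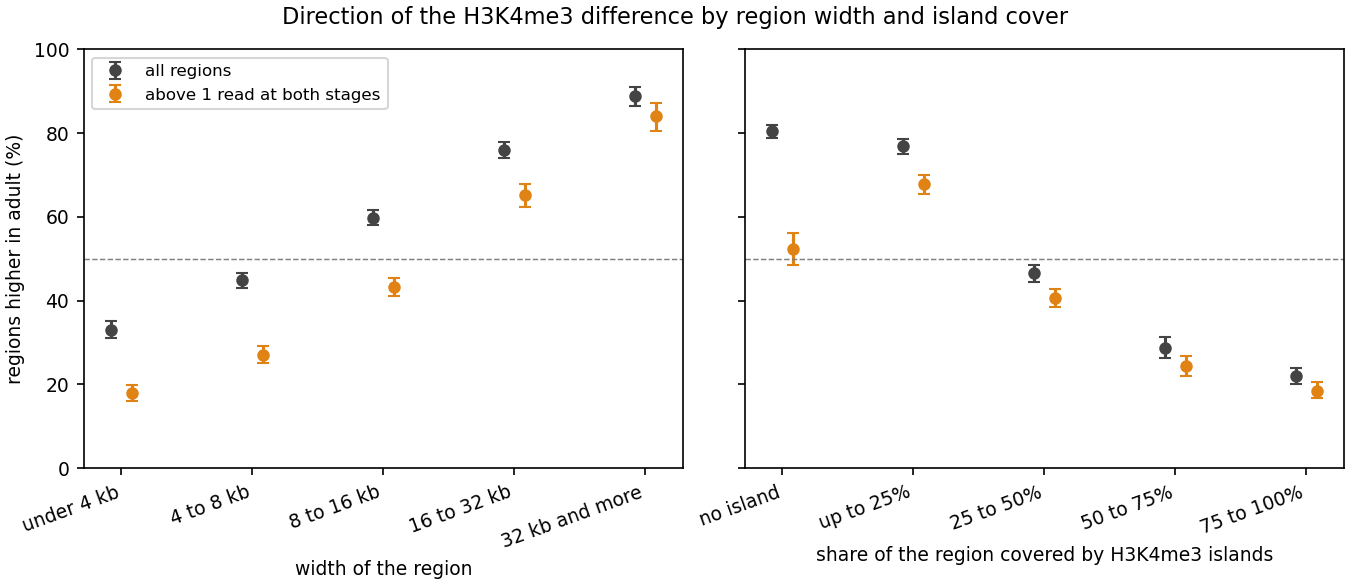
The vertical axis gives the percentage of regions higher in the adult, by width of the region (left) and by the share of it covered by H3K4me3 islands (right). Dark points are all regions, orange points those above 1 read at both stages, and bars are 95% Wilson intervals. The share runs from 33.1% to 88.9% with width and from 80.4% to 21.9% with island cover.

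Islands sorted the 2 directions further. Islands at both stages were present in 72.3% of the lower regions and in 42.6% of the higher ones. Of the 923 regions with a neonatal island only, 21.7% were higher in the adult, and of the 993 with an adult island only, 96.4% were. Of the 5618 with islands at both stages 42.0% were higher, a share that turned to 58.6% without the library factors. These shares come from the same libraries as the reads and are a description. Another 2506 regions (24.96%) had no H3K4me3 island at either stage, and 90.9% of them held an island of H3K79me2, H3K27me3 or H3K9me3. They made up 53.5% of the regions at least 4-fold higher and 45.1% of those at least 4-fold lower. The 446 regions that stood at the neonatal floor and held a neonatal island were wide, with a median of 20400 bp, and had a median of 71 adult reads.

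Within regions that had islands at both stages, the length under islands moved with the reads. In the 2359 higher regions the median length under islands was 2800 bp at the neonatal and 3200 bp at the adult stage, and the adult length was the greater in 56.1% of them. In the 3259 lower regions it was 3000 bp and 2200 bp, and the neonatal length was the greater in 73.3%. More than 1 adult island lay in 35.3% of the higher regions, against more than 1 neonatal island in 21.3%. Lower regions showed 13.1% and 17.3%. The length and number of islands thus differed in the same direction as the reads, more clearly among the lower regions for length and among the higher ones for number. Over all 5618 of these regions the neonatal length was the greater in 57.6% and the adult in 34.7%, with medians of 3000 and 2600 bp. Reads and islands come from the same libraries, so this is a description.

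Islands of the other marks, which come from other libraries, differed between higher and lower regions, and the difference depended on width. Over all widths, H3K27me3 islands were about as frequent in higher as in lower regions, at 18.1% and 18.97% in neonatal and 21.8% and 21.7% in adult cells. Among regions of 16 kb and more, however, a neonatal H3K27me3 island lay in 14.9% (13.4 to 16.5) of 1938 higher and in 33.2% (29.2 to 37.5) of 497 lower regions, and an adult one in 15.8% and 35.01%. Under 8 kb the order was the other way round, with a neonatal H3K27me3 island in 21.2% of higher and 14.8% of lower regions and an adult one in 30.6% and 17.3%. Put the other way, 67.9% (64.1 to 71.5) of regions of 16 kb and more with an H3K27me3 island at either stage were higher in the adult, against 83.5% (81.7 to 85.1) of those without. Under 8 kb the shares were 51.0% (48.2 to 53.7) and 35.5% (34.0 to 37.2). The order in each width range was the same without the library factors, at 84.4% and 91.7% for wide and 53.9% and 45.5% for narrow regions.

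H3K9me3 islands showed the same turn with width. In regions of 16 kb and more they lay in 14.8% of higher and 26.2% of lower regions in neonatal cells, and in 12.02% and 25.8% in adult cells. Under 8 kb the neonatal shares were 10.6% and 4.96% and the adult shares 22.4% and 8.90%. H3K79me2 islands were frequent in wide regions of either direction, and more so in those that were higher, with 86.2% against 71.8% in neonatal and 95.1% against 80.7% in adult cells. In narrow regions, under 8 kb, neonatal H3K79me2 islands lay in 29.9% of higher and 33.0% of lower regions, and adult ones in 53.2% and 51.3%. Among the regions of 16 kb and more above the floor at both stages the adult shares were 19% and 35.2% for H3K27me3, 14.4% and 25.9% for H3K9me3, and 94.3% and 80.6% for H3K79me2. The table regions are common to all marks, so a wide region is also one that other marks helped to define, and the part of this in the result was not tested.

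**Figure D3:**
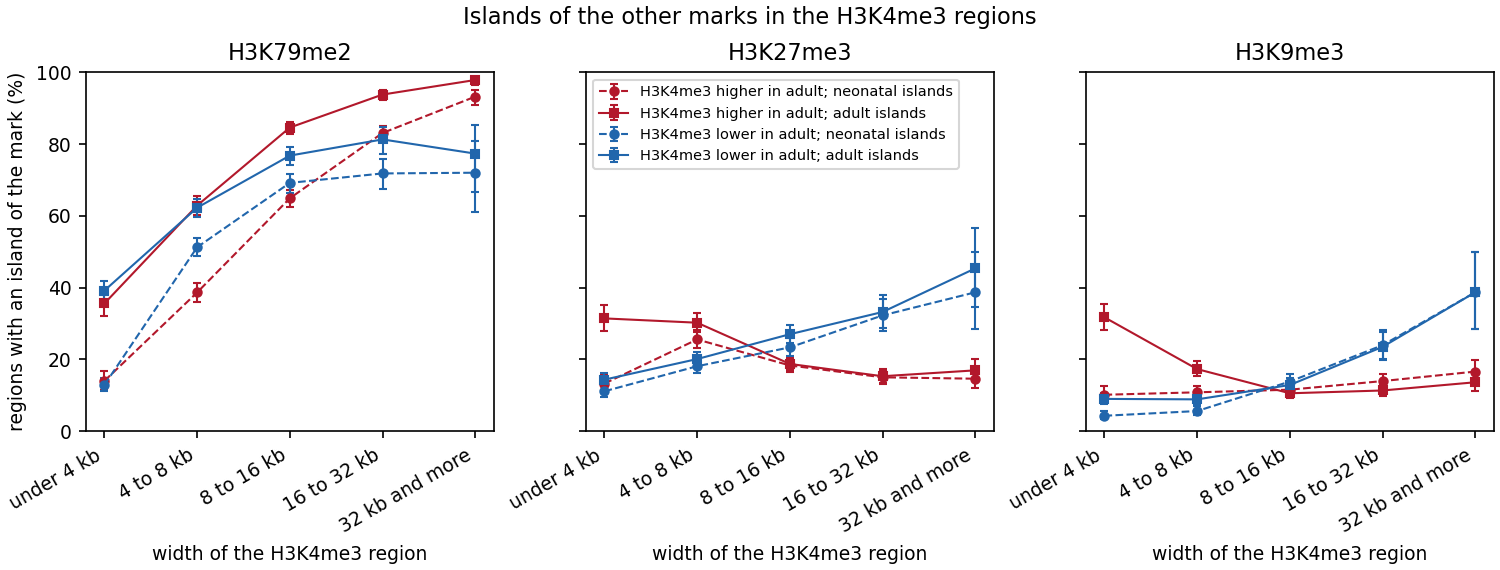
The vertical axis gives the percentage of regions that hold an island of H3K79me2, H3K27me3 or H3K9me3, by width of the region and direction of the H3K4me3 difference. Red is higher and blue lower in the adult, circles with dashed lines are neonatal and squares with solid lines adult islands, and bars are 95% Wilson intervals. For H3K27me3 and H3K9me3 the red and blue lines cross between narrow and wide regions, from 31.4% against 14.3% for adult H3K27me3 under 4 kb to 16.9% against 45.3% at 32 kb and more.

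The largest differences were sought among regions whose more strongly read stage also had an H3K4me3 island. The 8 largest increases lay on 7 chromosomes. At chr4:142728800-142752799 there were 3 neonatal and 2199 adult reads, a 435-fold higher adult level (149 to 2113). The islands there were alike in length, 2800 bp for the neonatal and 2600 bp for the adult library, and the adult score was the lower, at 32 against 70. Reads of the other marks were also higher in the adult at the same place, with H3K27me3 at 1 and 2018 reads, H3K9me3 at 11 and 670, and H3K79me2 at 357 and 5973. No H3K27me3 or H3K9me3 island was called there at either stage, and H3K79me2 had islands at both. At chr10:7227200-7237799 there were 4 and 2404 reads, 357-fold higher in the adult (139 to 1311), on an adult island of 8600 bp with a score of 3706. H3K9me3 there went from 6 to 1356 reads. The place of these reads within either region was not examined, and differences seen with several antibodies at once were not separated from one that is particular to H3K4me3.

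Most of the other large increases were wide regions with a neonatal level of 1 read although a neonatal island was present. The region chr8:34891400-35042999 held 1 neonatal and 776 adult reads, at least 154-fold higher with the floor taken as 3 reads. Its islands numbered 2 in neonatal and 10 in adult cells and covered 7800 and 30400 bp. At chr14:26269800-26390399 there were 1 and 541 reads, at least 107-fold higher, and islands went from 1 of 7800 bp to 6 over 21600 bp. At chr2:29474200-29572599 there were 1 and 489 reads, at least 96.8-fold higher, with 1 neonatal island of 7000 bp and 6 adult islands over 20200 bp. These 3 regions had H3K79me2 islands and no H3K27me3 island at either stage, and in each the number of H3K4me3 islands was several times larger in the adult. Their highest H3K4me3 island scores were alike at the 2 stages. In the order given they were 130 (neonatal) and 124 (adult), 132 and 123, and 103 and 101. The folds hold for the recovered reads and set no lower limit to a difference in the mark itself. At chr12:100501600-100641999 there were 1 and 497 reads, at least 98.4-fold higher, but the islands covered 7600 bp (neonatal) and 6200 bp (adult). The region chr7:140176800-140318999 held 1 and 463 reads, at least 91.7-fold higher, with islands over 2600 and 12200 bp. A further large increase, at chr4:119246400-119259799, went from 1 to 1207 reads with an adult island of only 200 bp. Of these 8 regions, 6 stood at the neonatal floor, 7 carried H3K79me2 islands at each stage, and in 6 the adult islands covered more than the neonatal ones. Among all higher regions of 16 kb and more, H3K79me2 islands lay in 86.2% in neonatal and 95.1% in adult cells. The count of 7 is near those shares.

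Above the floor at both stages the next increases were smaller. All of them rested on 2 or 3 neonatal reads, which may be a remainder after control subtraction. The region chr8:124804200-124862849 held 3 neonatal and 349 adult reads, 69.1-fold higher (23.5 to 337), and islands over 4400 and 12400 bp. An H3K27me3 island lay there in the adult only, with 1 and 71 H3K27me3 reads. At chr7:56544400-56639399 there were 2 and 205 reads, 60.9-fold higher (16.6 to 506), on 2 adult islands with no neonatal one. At chr10:77742000-77793599 there were 3 and 230 reads, 45.5-fold higher (15.4 to 222), with 1 neonatal and 3 adult islands. The remaining 3, at chr14:46073400-46103399, chr5:36245400-36301599 and chr2:58997929-59047399, were between 33.9 and 48.1-fold higher from 2 or 3 neonatal reads. Each had an H3K4me3 island at both stages. On chromosome 5 the islands went against the reads, from 4400 bp with a score of 67 to 2200 bp with 29 in the adult. On chromosome 2 they went from 2871 to 4200 bp, but the highest score from 44 to 37. On chromosome 14 both were larger in the adult, at 2000 and 2600 bp and scores of 28 and 32.

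The largest decreases mostly lacked the island itself in the adult. At chr10:22529600-22542799 there were 143 neonatal and 11 adult reads, 21.9-fold lower in the adult (11.9 to 44.8), and a neonatal island of 9000 bp had no adult counterpart. The region carried H3K27me3 islands at both stages, and H3K9me3 had an island in the adult alone. At chr17:6471800-6479599 there were 73 and 4 reads, 30.7-fold lower (11.5 to 116), and a neonatal island of 5600 bp was not called in the adult. The neonatal H3K79me2 island was also absent in the adult, with 50 and 22 H3K79me2 reads. At chr19:17210600-17220999 there were 45 and 1 reads, at least 25.3-fold lower, and H3K79me2 went the other way, from 1 to 48 reads with an adult island only. At chr6:60777600-60780799 there were 38 and 1 reads, at least 21.3-fold lower, on a neonatal island that filled all 3200 bp of the region and had no adult partner. At chr13:34194733-34196050 there were 41 and 1 reads, at least 23.0-fold lower, on a neonatal island of 1200 bp. No island of another mark lay in either of these last regions at either stage. Of the 8 largest decreases, 6 held a neonatal and no adult island, and 5 stood at the adult floor. All 8 were chosen to have a neonatal island. Of all 688 regions at least 4-fold lower, 282 held a neonatal island only and 92 had islands at both stages. A missing adult island is thus no trait of these 8 alone.

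The 2 exceptions kept an adult island. At chr17:27438400-27474799 there were 109 and 3 reads, 61.2-fold lower (20.4 to 301), with islands of 3600 and 1600 bp. H3K27me3 reads there were 1 and 67 and H3K9me3 reads 1 and 86. Islands of both these marks were called at both stages, so their neonatal level of 1 read is no measure of absence. At chr2:39069400-39082799 the reads were 44 and 1, at least 24.7-fold lower, yet the islands were alike at 1600 and 1800 bp. The smallest region of this group, chr17:51146859-51147264, had 59 and 1 reads, at least 33.1-fold lower, on a neonatal island of 200 bp with a score of 15.

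Of the 8 largest decreases above the floor, chr7:38967200-38983599 had the most reads. It held 443 neonatal and 77 adult reads, 9.69-fold lower (7.59 to 12.5). Its neonatal island covered 15800 of 16400 bp with a score of 1189, and the adult one 1800 bp with a score of 55. A neonatal H3K9me3 island there was absent in the adult, with 644 and 19 H3K9me3 reads, and an H3K79me2 island was present in the adult only, with 1 and 303 H3K79me2 reads. At chr19:17210600-17220999, which stood at the adult floor and is not among these 8, H3K9me3 reads were 17 and 1 and H3K79me2 reads 1 and 48. It had no H3K9me3 island at either stage. Among the 8, in contrast, chr10:45185200-45193799, with 38 and 2 H3K4me3 reads, gained an adult H3K27me3 island with 11 and 45 reads. At chr12:24398800-24401799 there were 36 and 2 reads and an H3K9me3 island in the adult only, with 1 and 24 reads. The region chr3:96191600-96196599, with 47 and 4 reads, held adult islands of both H3K27me3 and H3K9me3 where it had neither in neonatal cells. At chr5:13397400-13400452 there were 65 and 5 reads, 21.9-fold lower (8.91 to 69.7), with islands of 3000 and 1653 bp. The other members of the 8, given above, were chr17:27438400-27474799, chr10:22529600-22542799 and chr17:6471800-6479599. In all 8 decreases above the floor the islands were shorter in the adult, and adult H3K27me3 and H3K9me3 islands each lay in 4.

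**Figure D4:**
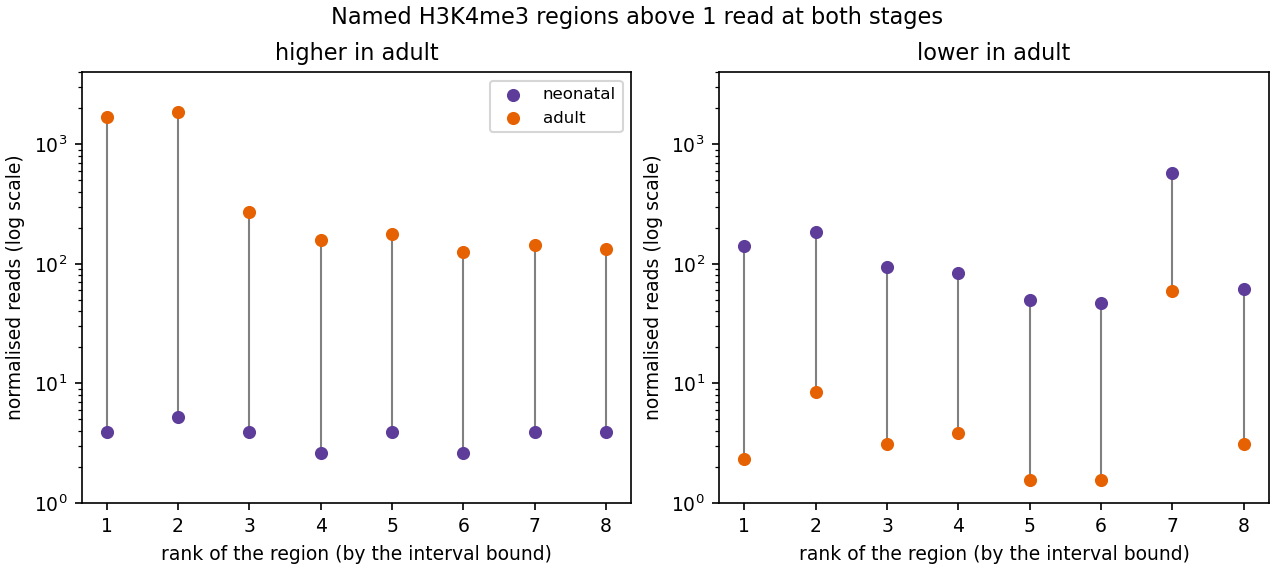
Normalised reads on a log scale are shown for the 8 regions with the largest increase (left) and decrease (right) among those above 1 read at both stages, in the order of their interval bound nearest to 1. Purple points are neonatal, orange points adult, 1 library each, joined by a line. The first 2 increases, from 3 to 2199 and from 4 to 2404 reads before scaling, stand apart from the other 6, and the decrease at rank 7 is the one from 443 to 77 reads.

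The widest regions higher in the adult held islands over at most 33.1% of their length. The widest of all, chr8:125406000-125570199 with 164200 bp, held 1 neonatal and 396 adult reads, at least 78.4-fold higher, with 3 neonatal and 6 adult islands that together touched 9.87% of it. At chr2:35421000-35570399 there were 179 and 732 reads, 2.43-fold higher (2.06 to 2.88), with 11 and 9 islands. At chr11:107185200-107333399 there were 12 and 387 reads, 19.2-fold higher (10.8 to 37.4), with 2 and 3 islands. All 4 of the widest higher regions carried H3K79me2 islands at both stages. So did most higher regions of 32 kb and more, with islands in 93.2% in neonatal and 97.8% in adult cells.

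The 4 widest regions lower in the adult differed between 1.21 and 1.53-fold, and 3 of them were covered by islands over more than 50% of their length. At chr15:102737400-102875399 there were 529 neonatal and 582 adult reads, 1.53-fold lower after scaling (1.36 to 1.72), and islands covered 69000 and 27000 bp. The region chr6:52099200-52228999 held 617 and 856 reads, 1.21-fold lower (1.09 to 1.35), with 72800 and 49800 bp under islands. At chr2:74484800-74596999 there were 461 and 556 reads, 1.396-fold lower (1.23 to 1.58), and 53400 and 26200 bp under islands. These 3 regions carried H3K27me3 and H3K9me3 islands at both stages and between 1293 and 1738 H3K27me3 reads in each library. H3K79me2 reads were 1, the floor, in neonatal and between 212 and 345 in adult cells. An H3K79me2 island was called only in the adult at chr15:102737400-102875399, and the other regions had none at either stage. The remaining one, chr7:75094828-75214799, had 186 and 222 reads, 1.41-fold lower (1.15 to 1.72), H3K79me2 islands at both stages and no H3K27me3 island. Its H3K4me3 islands, of 6200 and 3600 bp, covered 5.17% of it. In all 4 the reads before scaling were higher in the adult, so their direction rests on the library factors. The island lengths do not use those factors but come from the same libraries. Adult islands were also shorter in general, with a median of 2000 bp against 2400 bp for neonatal ones.

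Regions of 1 direction lay together in some places. Of 487 windows of 1 Mb with at least 8 regions, 7 held only higher and 3 only lower regions, beside 55.1% higher and 44.9% lower over all regions. All 17 regions within chr13:21000001-22000000 were lower in the adult, with log2 differences from -0.63 to -3.84 and a median of -1.28. They had between 16 and 103 neonatal and between 2 and 96 adult reads, all above the floor. Every one held a neonatal H3K4me3 island and 13 an adult one, and H3K27me3 islands numbered 2 in neonatal and 7 in adult cells. Without the library factors 16 of the 17 were lower. All 11 regions within chr12:18000001-19000000 were lower, with a median difference of -1.44 and medians of 30 neonatal and 19 adult reads. There 11 regions held a neonatal and 4 an adult H3K4me3 island, whereas H3K9me3 islands numbered 2 in neonatal and 11 in adult cells. The 10 lower regions within chr13:62000001-63000000 had a median difference of -1.48, with H3K4me3 islands in 9 and then 6, and H3K9me3 islands in 0 and then 4.

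The windows of higher regions differed in how many of their regions stood at the neonatal floor. All 13 regions within chr11:88000001-89000000 were higher, and 10 stood at 1 neonatal read, and 6 held an H3K4me3 island at each stage. In chr13:9000001-10000000 all 8 higher regions stood at 1 neonatal read and all 8 carried H3K79me2 islands at both stages. The 13 higher regions within chr9:110000001-111000000 included 8 above the floor, had medians of 5 neonatal and 55 adult reads, and held H3K4me3 islands in 7 in neonatal and 10 in adult cells. The share of higher regions by chromosome ran from 45.0% on chromosome 3 and 46.0% on chromosome 13 to 62.1% on chromosome 8 and 64.5% on chromosome 15.

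The SICER islands of the 2 stages covered almost the same length of chromosomes 1 to 19, with 20655 neonatal islands over 56.0 Mb and 23580 adult islands over 55.7 Mb. Of the neonatal islands 64.8% (64.2 to 65.5) touched an adult one, and of the adult islands 56.7% (56.0 to 57.3) a neonatal one. With the authors' MACS regions in place of the islands the adult regions covered 0.0673 times the neonatal length, and the shares were 26.8% and 72.5%. Among SICER islands sharing grew with width, from 50.5% of neonatal islands up to 1 kb to 91.8% (87.6 to 94.6) of the 243 over 8 kb, and from 42.5% to 92.2% (87.4 to 95.3) of the adult ones. A touch of 1 bp was enough, so a wider island can meet another by its length alone, and the part of this was not tested. Islands of 5 kb and more were 7.88% of the neonatal and 4.95% of the adult list. Adult islands without a neonatal partner often lay in adult H3K79me2 islands (42.0%, 41.0 to 42.9), and less so than shared adult islands (64.8%). Neonatal islands without an adult partner lay in neonatal H3K79me2 islands in 12.4% (11.6 to 13.2), against 50.3% of shared ones. Islands of 1 stage more often touched H3K27me3 than shared islands did, in 17.4% against 11.1% in neonatal and 20.8% against 13.7% in adult cells. For H3K9me3 these shares were 7.72% against 4.61% and 19.7% against 10.4%.

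**Figure D5:**
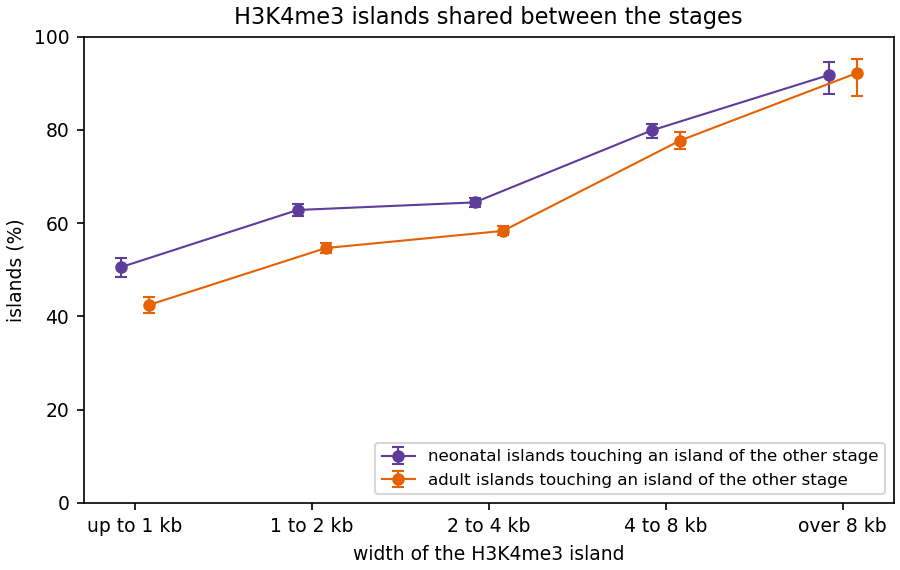
The percentage of H3K4me3 islands that touch an island of the other stage by at least 1 bp is shown by island width, in purple for neonatal and orange for adult islands, with 95% Wilson intervals. It is lowest up to 1 kb, at 50.5% and 42.5%, and above 90% for islands over 8 kb at either stage.

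The widest islands of 1 stage lay in places with reads at both. The neonatal island chr11:3048000-3067599, of 19600 bp, lay in a region of 78000 bp with 4507 neonatal and 5379 adult reads, 1.41-fold lower in the adult (1.36 to 1.47), and with H3K9me3 islands at both stages. At chr9:31713600-31724399 a neonatal island of 10800 bp lay in a region with 74 and 40 reads, 3.11-fold lower (2.09 to 4.70), and H3K27me3 and H3K9me3 islands at both stages. The neonatal island chr15:99407000-99417799, in a region with 65 and 75 reads that was 1.46-fold lower (1.03 to 2.06), shared its place with H3K27me3 islands at both stages. In adult cells the widest was chr4:146790200-146802199, of 12000 bp, in a region with 40 and 254 reads, 3.77-fold higher (2.69 to 5.41). The adult islands chr8:126124600-126134399 and chr15:85529200-85538599 lay in regions 1.83-fold (1.36 to 2.51) and 1.82-fold (1.54 to 2.16) higher. Another neonatal island, chr4:41755400-41765799, and another adult one, chr4:146120000-146130199, touched no listed region.

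Regions that the stage comparison did not list served as a background. Both H3K4me3 values could be read from the other tables for 3623 such regions on chromosomes 1 to 19. Their median difference was 0.0036 on the log2 scale, with quartiles of -0.31 and 0.33, and 50.4% were higher in the adult. Differences of at least 4-fold in either direction were found in 2.04%. Unlisted regions under 4 kb were higher in 48.0% (44.9 to 51.1), and those of 32 kb and more in 54.4% (44.8 to 63.7) of 103. The course with width seen among listed regions, from 33.1% to 88.9%, was therefore much flatter among unlisted ones, whose differences are small by their selection.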

How the data were processed

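H3K4me3 was profiled by chromatin immunoprecipitation and sequencing in 1 library per stage. Per the submitters' processing notes, Bowtie 0.12.8, SICER 1.1, MACS 1.4.2, DiffBind 1.2.0 and the build mm9 were used. The authors deposited SICER islands and MACS regions, each with a score, called per library, and DiffBind tables whose stage values are log2 of normalised read counts and whose folds are their differences. Dividing the unlogged values by their column's minimum gave whole numbers for 100% of them (tolerance 0.01), taken as reads; a floor of 1 after control subtraction was inferred. The same reads stood in the other tables for all 7274 neonatal and 7415 adult shared values. Library depth: not given in the sources used here. Not used were the 8 columns of embryonic stem cell values.

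Python 3.11.15 with pandas 2.3.3, numpy 2.4.6 and scipy 1.17.1 was used, figures were drawn with matplotlib 3.10.9, and overlaps needed at least 1 bp. Shares carry 95% Wilson intervals and read ratios exact conditional binomial 95% intervals. The latter were tested on simulated plain counts at the higher neonatal levels, without control subtraction. The test therefore does not cover levels of a few reads. A level at the floor was counted as 3 reads. Both kinds of interval cover counting error only, since reads amplified by PCR are not independent molecules, and neighbouring regions are not independent of each other.

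Named regions were, per direction, the 8 with the largest interval bound nearest 1 where the more strongly read stage had an H3K4me3 island, once over all and once above the floor, the 4 widest regions, and the 4 widest islands of each stage not touched by the other. The regions, classes and rules were chosen with earlier results of these data known. Gene lists planned for annotated regions were not used, because the gene tables at hand follow another build.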

Additional observations from a re-analysis of the deposited data

How the results depend on the processing

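With 1 library per stage no replicate could be left out. No paired analysis was possible because each group holds 1 sample. Against 55.1% higher, the share was 65.5% of the regions that differed without the library factors, a shift of 0.75 on the log2 scale, 50% after centring on the median difference of 0.77, and 56.8% at a false discovery rate under 0.001. It fell below 50% above 1 read at both stages (39.8%, 2829 higher), where the more strongly read stage had an island (45.4%, 3316 higher), and, in settings chosen after seeing the data, with islands at both stages (42.0%, 2359 higher) or over at least 50% of the region (25.3%, 802 higher, 2365 lower). Density limits of 0.25 reads per bp or none gave 55.1% and 55.4%. At 4-fold, against 3409 higher and 688 lower, there were 2513 lower at 2-fold, 383 lower without the factors, 706 higher above the floor, 1456 higher and 374 lower where the more strongly read stage had an island, and 298 and 261 with at least 50% covered. Against median region widths of 11592.5 bp higher and 6000 bp lower, the length under islands of the more strongly read stage was 2800 and 2800 bp, and regions at least 50% covered had 5200 bp for higher ones. Island sharing, 64.8% and 56.7%, was 53.9% and 50.9% when at least 50% of the island had to be covered, 61.8% and 61.3% with equal numbers of top islands, and 26.8% and 72.5% with MACS regions. MACS regions had medians of 997 bp (neonatal) and 147 bp (adult) and an adult to neonatal ratio of covered length of 0.0673, against 0.996 for islands. The causes were not tested. Without the library factors the log2 difference of the 4 widest lower regions turned, to 0.14 at chr15:102737400-102875399, 0.47 at chr6:52099200-52228999, 0.26 at chr7:75094828-75214799 and 0.27 at chr2:74484800-74596999. The other named regions kept their direction.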
